A study of Mus musculus with 2 samples.

Results

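The mouse embryonic stem (ES) cell line v6.5 was profiled by total RNA sequencing in 1 library of cells labelled T29I and 1 library of cells labelled wild-type (WT). The series title names the PRSS1 gene, which encodes a trypsinogen, as the mutated one. Both libraries carry the strain label NBA1-19349. The labels do not say how the mutation was introduced, how many clones were used or how the cells were cultured. The 10 genes described here are the actomyosin and smooth-muscle-type cytoskeleton genes Acta2, Tpm1, Tpm2, Cnn1, Tagln, Tagln2, Cald1, Actn1, Myl9 and Vim, taken by symbol from the 51826 genes of the deposited table. They were selected on their known roles and with their TPM levels in these 2 libraries already seen, so every difference below is a description and carries no test. With 1 library per group there is no replicate check, and "higher" and "lower" compare these 2 libraries only. Genotype, clone, culture and library preparation cannot be told apart.

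Actin filaments and non-muscle myosin II form the contractile bundles that give adherent cells their tension. Smooth muscle cells use a related set of proteins, among them alpha-smooth-muscle actin, calponin, transgelin and caldesmon, and many other cell types switch parts of that set on when they spread, stiffen or differentiate. Many of these genes are known targets of serum response factor (SRF), which binds a sequence called the CArG box and is held in check by free actin monomers through its MRTF coactivators. ES cells in their naive state grow as compact, rounded colonies, and contractile and mesenchymal cytoskeletal genes are commonly higher once they spread and differentiate.

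Promoter sequence was available for 9 of the 10 genes, in RefSeq's annotation of GRCm38.p6. The gene positions given below are from GENCODE M21, and its start sites can differ from those of RefSeq. Most of the Acta2 window and the whole Vim window, chr2:13574061-13574310, lie inside the GENCODE gene. Motif positions and absences therefore hold for the RefSeq starts only. The 250 bases before the start site are shown for Acta2, Cnn1 and Myl9, because these were among the genes furthest apart between the libraries and differ in CArG content. Capitals mark a CArG box (10 bases that begin with CC, end with GG and hold 6 A or T bases between) or a CArG-like match, in which 1 of those 6 core bases is G or C. The motif reads alike on both strands. The regions are chr19:34255374-34255623 on the minus strand, chr9:22099003-22099252 on the plus strand and chr2:156775214-156775463 on the plus strand.
Acta2: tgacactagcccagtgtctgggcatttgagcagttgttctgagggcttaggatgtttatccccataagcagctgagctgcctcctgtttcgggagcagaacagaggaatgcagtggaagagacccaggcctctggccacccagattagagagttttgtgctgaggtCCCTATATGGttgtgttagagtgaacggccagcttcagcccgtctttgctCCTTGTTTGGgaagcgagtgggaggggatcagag
Cnn1: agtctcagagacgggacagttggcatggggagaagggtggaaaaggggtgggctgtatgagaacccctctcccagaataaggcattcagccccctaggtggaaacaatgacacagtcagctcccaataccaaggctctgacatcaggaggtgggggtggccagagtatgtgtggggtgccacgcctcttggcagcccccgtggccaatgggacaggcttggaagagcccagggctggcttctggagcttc
Myl9: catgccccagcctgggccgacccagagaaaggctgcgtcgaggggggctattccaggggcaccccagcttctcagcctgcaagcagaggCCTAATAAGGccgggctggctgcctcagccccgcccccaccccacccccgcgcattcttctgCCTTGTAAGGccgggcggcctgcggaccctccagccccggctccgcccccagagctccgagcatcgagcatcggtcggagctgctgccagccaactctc

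Acta2 held 2 CArG-like matches, CCCTATATGG at 84 to 75 bases and CCTTGTTTGG at 34 to 25 bases before the start. Myl9 held 1 CArG box, CCTAATAAGG, at 161 to 152 bases before the start and 1 CArG-like match, CCTTGTAAGG, at 99 to 90 bases. In the other 7 genes with a promoter entry, Cnn1, Tpm1, Tpm2, Tagln2, Cald1, Actn1 and Vim, neither form occurred in this window. Over all 32851 promoters of the same length, 1.47% held a CArG box and 8.59% held either form. The core GGAATG, bound by TEAD factors, occurred on either strand before Acta2, Tpm1, Tagln2 and Cald1, against 12.6% of all promoters, and did not overlap a CArG match. The TATAAA box was found before Vim and before 1 of the 2 Cald1 starts, against 12.4% of all promoters, and GGGCGG before 5 of the genes, against 32.7%. A match describes letters in the window and was not tied to binding in these cells.

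Acta2, Cnn1, Tagln and Myl9, which are prominent in smooth muscle, were several-fold higher in the T29I library than in the WT library, while Cald1, Vim and Actn1 were not higher as deposited. Levels are in TPM, which scales reads by gene length and then by the summed level of the library, and the bracketed ranges are 95% exact Poisson intervals from estimated reads, which cover counting error only. Because the RNA comes from bulk cultures, more cells expressing a gene and more RNA per cell cannot be told apart. A gene is called higher or lower here when it differs by 2-fold or more on the log2(TPM + 1) scale and its mean over the libraries reaches 1 TPM, which all 10 genes did. Of the 10, 5 were called higher in the T29I library and 1 was called lower. Of all 12943 genes that reached this mean, 9.97% were called higher and 45.7% were called lower. The summed level of the 10 genes was 637 TPM in the T29I library and 542 TPM in the WT library.

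**Figure D1:**
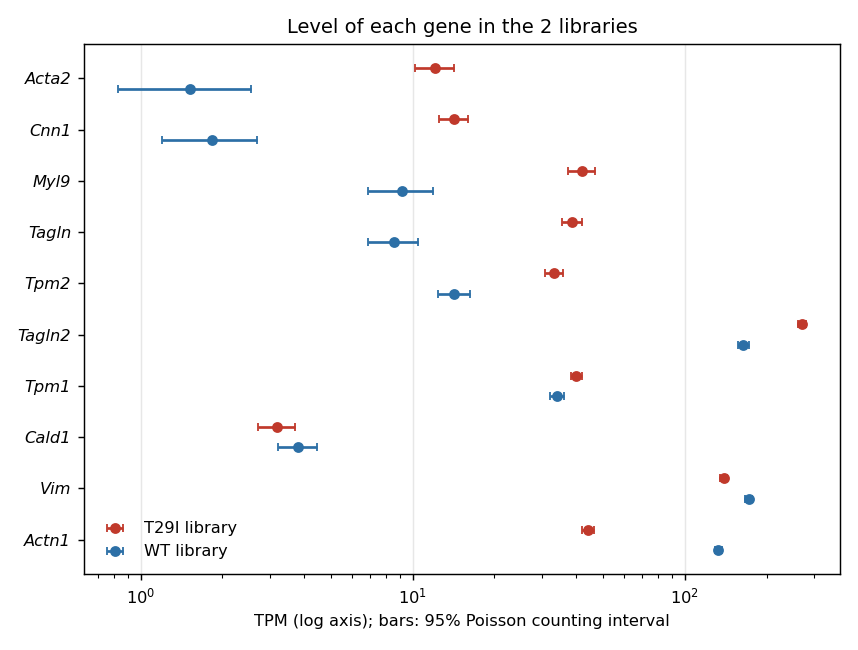
TPM (log axis) of each of the 10 genes in the T29I library (red, upper point) and the WT library (blue, lower point), with 95% Poisson counting intervals, ordered by fold from the highest at the top. The intervals of the libraries are apart for 9 of the genes and overlap for Cald1, and Acta2 and Cnn1 show the widest gaps.

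Acta2 (ENSMUSG00000035783, chromosome 19, 34241090 to 34255590, minus strand) encodes smooth muscle alpha-actin, the actin of smooth muscle and of contractile fibroblasts. It was at 12.1 TPM (10.2 to 14.2) in the T29I library and 1.51 TPM (0.828 to 2.54) in the WT library, from an estimated 142 reads in T29I and 14 reads in WT. The ratio was 7.97-fold (4.60 to 15.0), the widest in linear terms among the 10 genes, and the low WT count sets its wide interval. By rank, Acta2 stood at 5249 among all genes of the T29I library and at 12281 among those of the WT library. It nevertheless stayed a minor actin, at 0.146% of the summed TPM of the 6 actin genes in the T29I library and 0.0349% in the WT library.

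The other actins did not differ alike as deposited. Actg1, which encodes the cytoplasmic gamma-actin, was at 6218 TPM in the T29I library and 2244 TPM in the WT library. Actb, the cytoplasmic beta-actin, was at 2053 TPM (T29I) and 2086 TPM (WT), so the share of Actg1 in the actin pool was 75.0% in the T29I library and 51.8% in the WT library. Actb and Actg1 encode near-identical proteins and have processed copies, so their split depends on how the authors assigned shared reads. Acta1, the skeletal muscle actin, was at 7.10 TPM (T29I) and 0.752 TPM (WT), whereas Actg2, the enteric smooth muscle actin, was at 0.389 TPM (T29I) and 0.990 TPM (WT). Actc1, the cardiac actin, was at 1.12 TPM in the T29I library and listed at 0 in the WT library. Acta2, Acta1 and Actg1 were thus called higher in the T29I library on the deposited scale. The mean of Actc1 was below 1 TPM, so it was not called, and Actg2 lay below 1 TPM in both libraries.

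Cnn1 (ENSMUSG00000001349, chromosome 9, 22099216 to 22109630, plus strand) encodes calponin 1, an actin-binding protein of differentiated smooth muscle that inhibits the myosin ATPase. It was at 14.2 TPM (12.5 to 16.0) in the T29I library and 1.83 TPM (1.20 to 2.68) in the WT library, from 256 estimated reads in T29I and 26 in WT. The fold of 7.74 (5.16 to 12.1) overlapped that of Acta2 within counting error. On the log2 scale Cnn1 had the highest ratio of the 10 genes, 2.42, and the 3 named genes nearest to it in both levels were Tinagl1, Espn and Nrn1l. Tinagl1 was at 13.3 TPM (T29I) and 1.81 TPM (WT), Espn at 13.2 TPM (T29I) and 1.89 TPM (WT), and Nrn1l at 15.5 TPM (T29I) and 1.87 TPM (WT), a likeness over only 2 libraries.

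Tagln (ENSMUSG00000032085, chromosome 9, 45929619 to 45936058, minus strand) encodes transgelin, or SM22-alpha, an early smooth muscle protein that binds and bundles actin. It was at 38.6 TPM (35.3 to 42.1) in the T29I library and 8.53 TPM (6.84 to 10.5) in the WT library, a ratio of 4.53-fold (3.60 to 5.74). Its exons overlap those of Pcsk7 on the opposite strand by 108 bases, and Pcsk7 went the other way, at 4.09 TPM (T29I) and 10.3 TPM (WT). The overlapping antisense gene AC122273.2 was listed at 0 in both libraries.

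Tagln2 (ENSMUSG00000026547, chromosome 1, 172500047 to 172507380, plus strand) encodes the widely expressed paralogue transgelin-2. It was the most abundant of the 10 genes in the T29I library, at 271 TPM (262 to 280), against 164 TPM (157 to 172) in the WT library. The ratio of 1.65-fold (1.56 to 1.75) was smaller than that of Tagln. Within each library, Tagln stood at 14.3% of the level of Tagln2 in the T29I library and at 5.20% in the WT library. These ratios within a library do not depend on how the library was scaled. They can still carry differences between the libraries that follow length and GC content, which are described below.

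Calponins and transgelins belong to 1 protein family, and its makeup differed between the libraries. Cnn3, the calponin of non-muscle cells, was at 108 TPM in the T29I library and 307 TPM in the WT library, while Cnn2 was at 168 TPM (T29I) and 57.3 TPM (WT). Tagln3, best known from neurons, was at 19.2 TPM (T29I) and 7.92 TPM (WT). The share of Cnn3 in the summed TPM of the 6 genes was 17.4% in the T29I library and 56.1% in the WT library. Cnn1 made up 2.29% (T29I) and 0.335% (WT), Tagln 6.25% (T29I) and 1.56% (WT), and Tagln2 43.8% (T29I) and 30.0% (WT). As deposited, Cnn3 was the only gene of the 6 that was lower in the T29I library. Its log2 ratio was -0.61 relative to the median of all well-measured genes, described below. Adjusted for length and GC content it was -0.78, so both values were within 2-fold. The adjusted log2 ratios of the other genes were 2.89 for Cnn1, 2.13 for Tagln, 1.80 for Cnn2, 0.996 for Tagln3 and 0.36 for Tagln2.

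**Figure D2:**
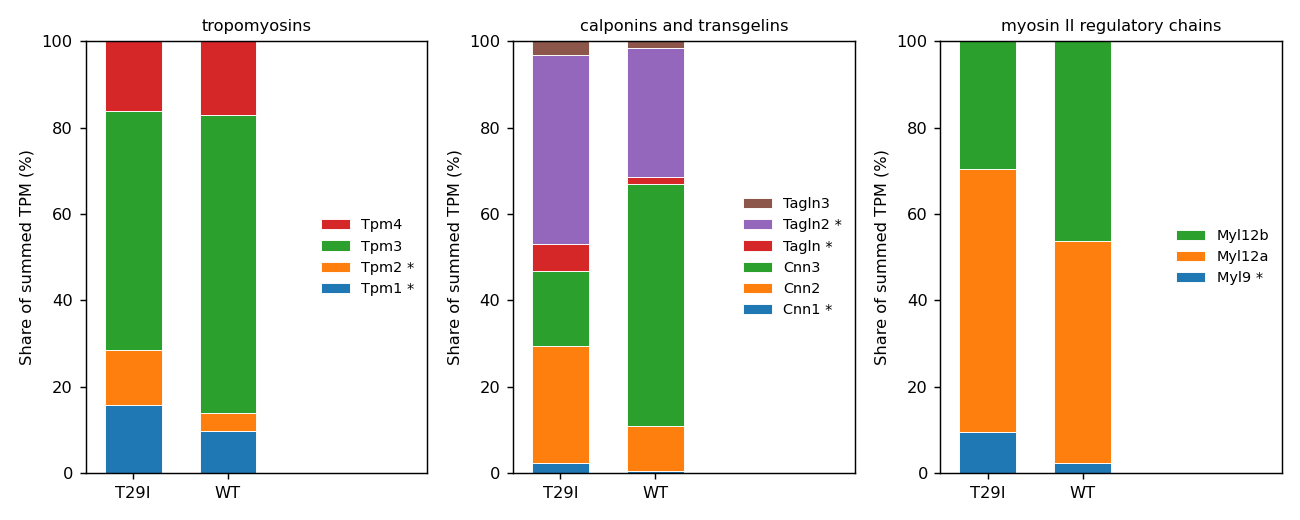
Share of the summed TPM (%) held by each gene in the tropomyosin, calponin and transgelin, and myosin II regulatory chain families, with the T29I library left of the WT library; asterisks mark genes among the 10. Cnn3 took 17.4% of its family in the T29I library and 56.1% in the WT library, and Tpm2, Tagln and Myl9 each took a larger share in the T29I library. Shares are from TPM as deposited, without adjustment for length or GC content.

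Tropomyosins are coiled-coil proteins that lie along actin filaments and control which myosins and regulators can bind. Tpm2 (ENSMUSG00000028464, chromosome 4, 43514711 to 43523765, minus strand), the beta-tropomyosin, was at 33.1 TPM (30.6 to 35.8) in the T29I library and 14.2 TPM (12.4 to 16.3) in the WT library. Its ratio was 2.32-fold (1.99 to 2.73). Tpm1 (ENSMUSG00000032366, chromosome 9, 67022590 to 67049406, minus strand), the alpha-tropomyosin, was at 40.0 TPM (38.1 to 41.9) in the T29I library and 33.9 TPM (32.0 to 35.9) in the WT library, a ratio of 1.18-fold (1.09 to 1.27). Tpm1 thus differed little on the deposited scale, and Tpm2 stood at 82.8% of the level of Tpm1 in the T29I library and 42.0% in the WT library. After the adjustment for length and GC content described below, their log2 ratios were close, at 1.05 for Tpm1 and 1.13 for Tpm2. With merged exon length in that adjustment they were 1.55 for Tpm1 and 1.21 for Tpm2. The cytoskeletal tropomyosins Tpm3 and Tpm4 were lower in the T29I library as deposited, at 141 TPM (T29I) and 239 TPM (WT) and at 41.5 TPM (T29I) and 59.4 TPM (WT), but their log2 ratios were 0.14 and 0.39 above the shift, the median of all well-measured genes described below. Of the family's summed TPM, Tpm1 took 15.6% in the T29I library and 9.77% in the WT library, and Tpm2 took 12.9% (T29I) and 4.11% (WT). Both genes give muscle and non-muscle isoforms by alternative promoters and splicing, and the gene-level values do not separate them; 21 transcripts of Tpm1 are annotated.

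Myl9 (ENSMUSG00000067818, chromosome 2, 156775420 to 156781658, plus strand) encodes a regulatory light chain of smooth muscle and non-muscle myosin II, whose phosphorylation switches contraction on. It was at 41.8 TPM (37.4 to 46.7) in the T29I library and 9.12 TPM (6.87 to 11.9) in the WT library, a ratio of 4.59-fold (3.44 to 6.22). Its non-muscle paralogues Myl12a and Myl12b were at 268 TPM (T29I) and 197 TPM (WT) and at 130 TPM (T29I) and 176 TPM (WT). Myl9 therefore held 9.50% of the summed regulatory chain TPM in the T29I library and 2.38% in the WT library. These shares are not adjusted for length and GC content. The log2 ratios were 2.08 for Myl9, 0.44 for Myl12a and -0.44 for Myl12b as deposited. Adjusted, they were 1.41, 0.88 and -0.13. The heavy chains went the other way as deposited. Myh9, the heavy chain of non-muscle myosin IIA, was at 22.4 TPM (T29I) and 81.7 TPM (WT), and Myh10, that of IIB, at 8.76 TPM (T29I) and 33.6 TPM (WT). Once length and GC content were adjusted for, as described below, their log2 ratios were -0.41 for Myh9 and 0.15 for Myh10. Myh11, the smooth muscle heavy chain, was at 0.0685 TPM in the T29I library and 0.378 TPM in the WT library. The essential light chain Myl6 was at 70.05 TPM (T29I) and 288 TPM (WT), and its relative Myl6b at 36.6 TPM (T29I) and 14.5 TPM (WT).

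Cald1 (ENSMUSG00000029761, chromosome 6, 34598500 to 34775473, plus strand) encodes caldesmon, which blocks actomyosin interaction until calcium-calmodulin or phosphorylation releases it. It was the least abundant of the 10 genes in the T29I library, at 3.17 TPM (2.70 to 3.70), against 3.78 TPM (3.20 to 4.44) in the WT library. The ratio of 0.838 (0.667 to 1.05) did not exceed counting error.

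Vim (ENSMUSG00000026728, chromosome 2, 13573927 to 13582826, plus strand) encodes vimentin, the intermediate filament protein of mesenchymal cells. It was at 139 TPM (135 to 144) in the T29I library and 172 TPM (167 to 177) in the WT library, a ratio of 0.810 (0.776 to 0.845). By rank it hardly moved, at 894 in the T29I library and 901 in the WT library. Of the other intermediate filament genes, Des, the desmin gene of muscle, was at 22.5 TPM (T29I) and 4.16 TPM (WT), and Prph, the peripherin gene, at 47.4 TPM (T29I) and 10.1 TPM (WT). Lmnb1, which encodes lamin B1, was at 160 TPM (T29I) and 586 TPM (WT). Plec, which encodes the linker plectin, was at 3.71 TPM (T29I) and 27.9 TPM (WT), with an adjusted log2 ratio of -0.069. Vimentin was thus already abundant in the WT library, where Acta2, Cnn1, Tagln and Myl9 were each below 10 TPM.

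Actn1 (ENSMUSG00000015143, chromosome 12, 80167547 to 80260371, minus strand) encodes alpha-actinin-1, which crosslinks actin filaments at stress fibres and focal adhesions. It was at 44.2 TPM (42.1 to 46.4) in the T29I library and 133 TPM (129 to 137) in the WT library, 3.01-fold lower in the T29I library (2.84 to 3.19). Its paralogue Actn4 was at 184 TPM (T29I) and 519 TPM (WT), and Actn1 stood at 24.1% of Actn4 in the T29I library and 25.7% in the WT library. The muscle alpha-actinins Actn2 and Actn3 were at 6.82 TPM (T29I) and 2.84 TPM (WT) and at 28.3 TPM (T29I) and 37.6 TPM (WT). Flna, which encodes a large actin crosslinker, was at 42.4 TPM (T29I) and 149 TPM (WT), whereas Flnc, the muscle filamin gene, was at 7.52 TPM (T29I) and 4.88 TPM (WT). As deposited, the widely expressed forms Actn1, Actn4 and Flna were thus lower in the T29I library, and of the muscle forms Actn2 and Flnc were higher and Actn3 was lower. The log2 ratio of Actn3 was 0.50 relative to the shift and -0.37 adjusted for length and GC content, and that of Flna was -0.89 relative to the shift and 0.14 adjusted.

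The order of the 10 genes also differed between the libraries. In the T29I library Tagln2 and Vim led, followed by Actn1, Myl9, Tpm1 and Tagln, which lay between 38.6 and 44.2 TPM with overlapping counting intervals between neighbours, then Tpm2, Cnn1, Acta2 and Cald1. In the WT library Vim, Tagln2 and Actn1 led, with overlapping intervals for Vim and Tagln2, followed by Tpm1, Tpm2, Myl9, Tagln, Cald1, Cnn1 and Acta2. The neighbours Myl9 and Tagln, and Cnn1 and Acta2, overlapped in the WT library too. Cald1 stood above Cnn1 and Acta2 in the WT library and below both in the T29I library.

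Ratios over all genes leaned towards lower TPM in T29I and followed transcript length and GC content, so each ratio was also read on a pair of further scales. The "shift" below is the median log2 ratio of the 9375 genes whose mean reached 5 TPM, and was -0.90. Among 9100 protein-coding genes, a fit on the length and GC content of the longest transcript explained 44.9% of the variance in log2 ratio. Relative to the shift, 7 of the 10 genes were called higher and 0 lower, against 26.0% called higher and 22.2% called lower among all genes tested. After adjustment for length and GC content the counts were again 7 higher and 0 lower, against 17.6% higher and 15.5% lower among 12920 genes. The 7 were not the same on both scales. Acta2, Cnn1, Tagln, Myl9, Tpm2 and Tpm1 were in both, Tagln2 only in the first and Cald1 only in the second.

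The 5 genes Acta2, Cnn1, Tagln, Myl9 and Tpm2 were called higher on all 3 scales, as were 6.65% of the 12920 genes. Their log2 ratios relative to the shift were 3.27, 3.32, 2.95, 2.98 and 2.06, and after adjustment 2.93, 2.89, 2.13, 1.41 and 1.13. Tagln2, with a GC content of 55.8% and a longest transcript of 1586 bases, had 0.72 as deposited, 1.61 relative to the shift and 0.36 adjusted. Cald1, with a GC content of 45.0% and 4777 bases, had -0.20, 0.70 and 1.52. The adjusted value of Cald1 is a distance from the ratio fitted for genes of its length and GC content, not a higher TPM in T29I. Vim had -0.30, 0.59 and 0.81, and Tpm1 0.23, 1.13 and 1.05. Actn1 was below 0 on each scale, at -1.57, -0.67 and -0.80. The median over the 10 genes was 0.94 as deposited, 1.84 relative to the shift and 1.27 adjusted, against -0.84, 0.055 and 0.040 over all genes tested.

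**Figure D3:**
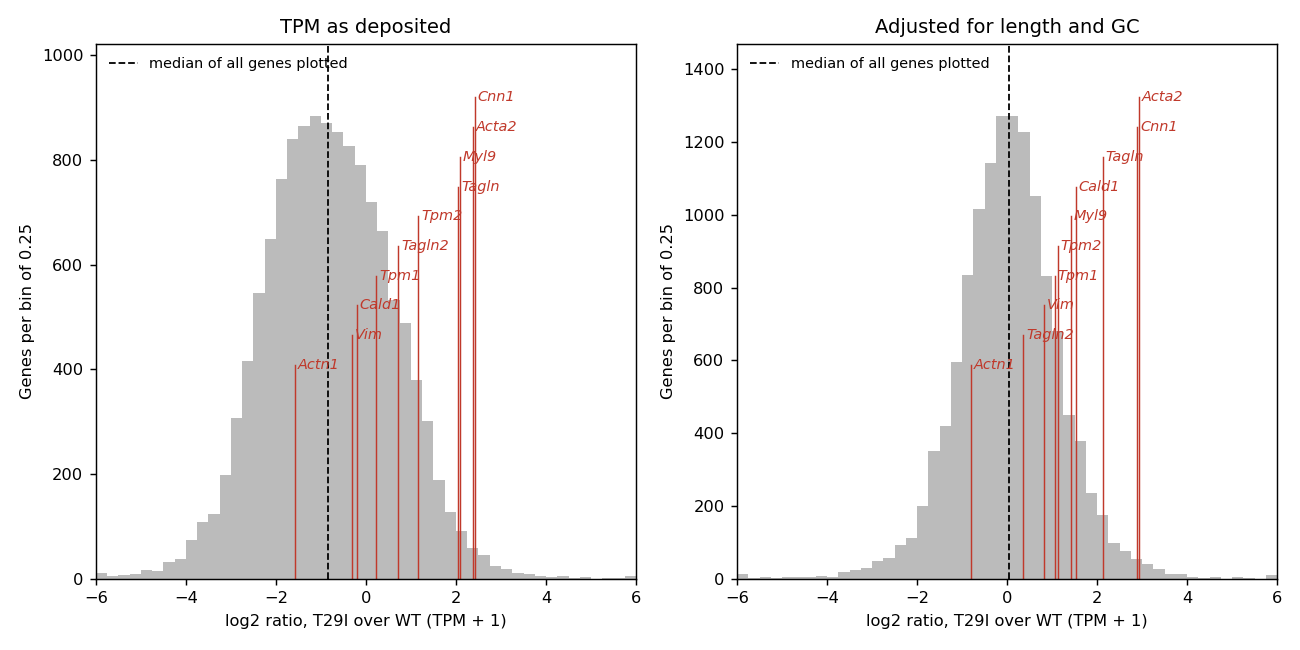
Number of genes per bin of log2 ratio, T29I over WT on the log2(TPM + 1) scale, for all genes whose mean reached 1 TPM (grey), as deposited (left) and adjusted for length and GC content (right), with values beyond the axis in its end bins. Red lines mark the 10 genes and the dashed line the median of all genes, -0.84 and 0.040; Acta2 and Cnn1 lie in the upper tail of both panels and Actn1 left of both medians.

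Read as positions, 1.27% of the tested genes had a deposited ratio as high as that of Acta2, 1.21% as high as that of Cnn1, 2.06% as high as that of Tagln and 1.99% as high as that of Myl9. After adjustment these shares were 1.08%, 1.13%, 3.23% and 9.80%. The position of Myl9, whose transcripts are short and whose GC content is 56.6%, thus depended most on the adjustment among these 4 genes. Vim and Cald1 lay well inside the distribution as deposited, with 36.0% and 33.3% of the genes as high.

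**Figure D4:**
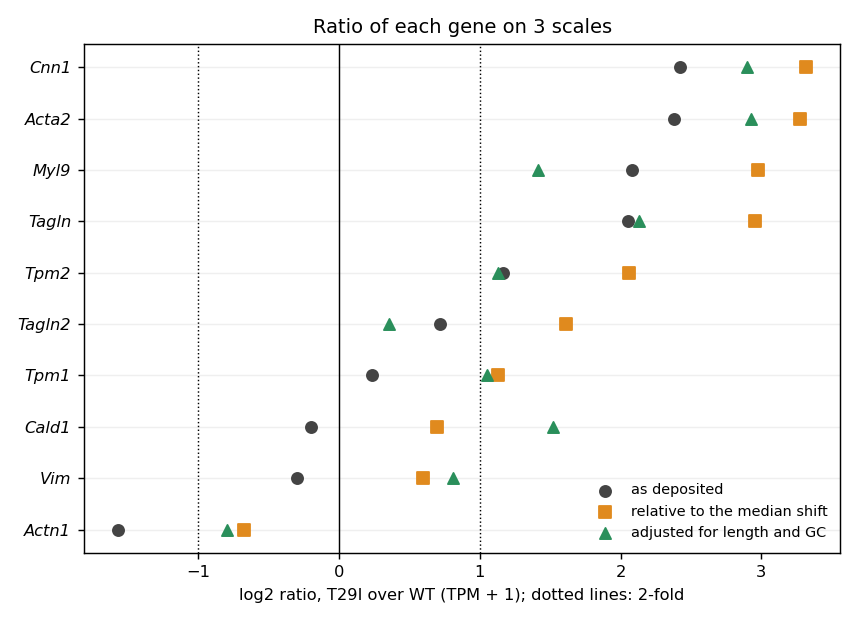
Log2 ratio, T29I over WT on the log2(TPM + 1) scale, of each of the 10 genes as deposited (circles), relative to the median shift (squares) and adjusted for length and GC content (triangles), with dotted lines at 2-fold. Acta2, Cnn1, Tagln, Myl9 and Tpm2 lie beyond the upper line on all 3 scales, and Actn1 lies below 0 on all 3.

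The counts in the other cytoskeletal lists were read against the shares over all genes tested, which were 26.0% higher and 22.2% lower relative to the shift and 17.6% higher and 15.5% lower after adjustment. Of the 12 measured genes of myosin control, 3 were called higher and 4 lower relative to the shift, and the 3 higher were near the share over all genes. Dapk3, a kinase that phosphorylates myosin light chains, was at 113 TPM in the T29I library and 27.8 TPM in the WT library, and Rhob, a small GTPase gene, at 40.9 TPM (T29I) and 14.8 TPM (WT). Rock2, a kinase that raises light chain phosphorylation, was at 1.52 TPM (T29I) and 20.8 TPM (WT), and Mylk, the dedicated myosin light chain kinase, at 0.0596 TPM (T29I) and 0.114 TPM (WT). After adjustment Dapk3 had a log2 ratio of 0.55 and Rock2 -0.62, both within 2-fold. These genes had a median of -0.38 against the shift and 0.064 adjusted.

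Of the 23 actin assembly genes, 7 were called higher and 5 lower relative to the shift, with a median of -0.31, and both counts were near the shares of 26.0% and 22.2% over all genes. Pfn1, which encodes the monomer-binding protein profilin, was at 4449 TPM in the T29I library and 1134 TPM in the WT library. Gsn, the filament-severing gelsolin gene, was at 22.97 TPM (T29I) and 2.87 TPM (WT), with an adjusted log2 ratio of 2.55. Twf1, which encodes the monomer-sequestering twinfilin, was at 20.02 TPM (T29I) and 124 TPM (WT). After adjustment 3 of them were called higher and 1, Twf1, was called lower.

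SRF itself and its targets did not follow 1 direction. Srf was at 55.1 TPM in the T29I library and 36.2 TPM in the WT library, with an adjusted log2 ratio of -0.57. Its coactivator genes Mkl1 and Mkl2 (MRTF-A and MRTF-B) were at 13.4 TPM (T29I) and 12.4 TPM (WT) and at 2.12 TPM (T29I) and 9.11 TPM (WT). The log2 ratio of Mkl2 was -0.80 relative to the shift and 0.52 adjusted, both within 2-fold. Myocd, the smooth muscle coactivator, was listed at 0 in the T29I library and at 0.0600 TPM in the WT library. Of 18 measured genes in this list, 9 were called higher and 4 lower relative to the shift, with a median of 1.05, against 26.0% higher and 22.2% lower over all genes. After adjustment 7 were called higher and 1 lower, with a median of 0.49, against 17.6% higher and 15.5% lower over all genes. Zyx, the zyxin gene of focal adhesions, was the highest at 33.3 TPM (T29I) and 2.43 TPM (WT). Csrp1, a LIM protein of smooth muscle, was at 266 TPM (T29I) and 52.7 TPM (WT) and Cyr61, a matricellular protein, at 55.1 TPM (T29I) and 16.6 TPM (WT). Vcl, the vinculin gene, was at 10.6 TPM (T29I) and 58.1 TPM (WT), Fhl1 at 8.27 TPM (T29I) and 47.9 TPM (WT), and Pdlim5 at 3.42 TPM (T29I) and 25.9 TPM (WT). Adjusted log2 ratios were -0.76 for Vcl, -1.65 for Fhl1 and -0.78 for Pdlim5, so the 1 gene still called lower was Fhl1. Egr1 and Fos, which SRF controls with another set of coactivators, were at 11.8 TPM (T29I) and 10.1 TPM (WT) and at 2.83 TPM (T29I) and 1.23 TPM (WT).

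Focal adhesions anchor the bundles that alpha-actinin crosslinks. Of 18 focal adhesion genes, 6 were called higher and 5 lower relative to the shift, not far from the 26.0% and 22.2% over all genes. After adjustment 7 were called higher and 2 lower, against 17.6% higher and 15.5% lower over all genes. Itgb1, the beta1 integrin gene, was at 16.8 TPM in the T29I library and 118 TPM in the WT library, and Ilk, which encodes an integrin-linked kinase, at 69.5 TPM (T29I) and 27.7 TPM (WT). In the YAP and TEAD list, 3 of 13 genes were called higher and 1 was called lower relative to the shift, against 26.0% higher and 22.2% lower over all genes. After adjustment 3 of the 13 were called higher and 0 lower, against the same 17.6% and 15.5%. Tead1 was at 3.85 TPM (T29I) and 50.1 TPM (WT), with an adjusted log2 ratio of -0.68, within 2-fold. Ctgf, a common YAP target, was at 15.4 TPM (T29I) and 20.9 TPM (WT), with an adjusted log2 ratio of 0.32. Cyr61, also in this list, had its highest ratio, at 55.1 TPM (T29I) and 16.6 TPM (WT), and 1.87 adjusted.

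Most of the markers that define mature smooth muscle were below 1 TPM in both libraries. Of 12 such genes outside the 10, 8 were below 1 TPM in the T29I library and 8 in the WT library, among them Myh11, Myocd, Mylk, Lmod1, Actg2 and Synpo2. The list's summed level was 329 TPM in the T29I library and 223 TPM in the WT library, of which Rbpms2 alone gave 276 TPM (T29I) and 183 TPM (WT). Smtn, the smoothelin gene, was at 26.3 TPM (T29I) and 30.9 TPM (WT), and Des was the only gene of the list called higher as deposited. Of the 4 genes whose mean reached 1 TPM, 1 was thus called higher as deposited, 2 relative to the shift and 1 after adjustment. On each scale 0 were called lower. The shares of all genes called higher were 9.97%, 26.0% and 17.6%. The smooth-muscle-type genes that were higher thus came without the smooth muscle myosin heavy chain.

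Markers of fibroblasts, which are often used as feeder cells for ES cultures, were also low. Of 21 such genes, 14 were below 1 TPM in the T29I library and 15 in the WT library, with summed levels of 33.4 TPM (T29I) and 21.4 TPM (WT). Col1a1 was at 1.38 TPM (T29I) and 0.939 TPM (WT), Col1a2 at 0.312 TPM (T29I) and 0.238 TPM (WT) and Col3a1 at 0.123 TPM (T29I) and 0.255 TPM (WT), and Lum, Fap and Prrx1 were listed at 0 in both libraries. Thy1 gave the largest part of the sum, at 17.6 TPM (T29I) and 4.57 TPM (WT). Of the 7 fibroblast markers whose mean reached 1 TPM, 2 were called higher as deposited, 4 against the shift and 3 once adjusted. On each scale 0 were called lower. The matching shares of all genes called higher were 9.97%, 26.0% and 17.6%. The 2 higher as deposited were Thy1 and Mfap5, with Mfap5 at 3.42 TPM (T29I) and 0.912 TPM (WT). Striated muscle markers summed to 25.9 TPM (T29I) and 13.3 TPM (WT), with 11 of 13 below 1 TPM in T29I and 8 of 13 in WT. Tnnt1 gave most of the sum in T29I, at 20.9 TPM (T29I) and 2.71 TPM (WT). Of the 3 whose mean reached 1 TPM, Tnnt1 was called higher on each scale. The other 2, Tnni3 and Myh6, were called lower as deposited, as were 45.7% of all genes. Relative to the shift 0 were called lower. Tnni3, at 0.807 TPM (T29I) and 3.17 TPM (WT), was called lower after adjustment, with a log2 ratio of -1.83. The adjusted log2 ratio of Myh6 was 0.082. Endothelial markers summed to 50.3 TPM (T29I) and 35.0 TPM (WT), with 3 of 7 below 1 TPM in each library, and Pecam1, which ES cells also express, was at 36.8 TPM (T29I) and 24.3 TPM (WT). Markers of primitive and parietal endoderm summed to 262 TPM (T29I) and 169 TPM (WT), with 9 of 13 below 1 TPM in T29I and 7 of 13 in WT, and the largest part was Sparc at 237 TPM (T29I) and 86.3 TPM (WT). Lama1, a laminin gene, was at 0.588 TPM (T29I) and 33.8 TPM (WT).

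Most trophoblast markers moved with the smooth-muscle-type genes, and their part in the result was not tested. Their summed level was 1014 TPM in the T29I library and 131 TPM in the WT library. Of the 9 measured genes, 7 were called higher on each of the 3 scales. Over all genes, 9.97% were called higher as deposited, 26.0% relative to the shift and 17.6% after adjustment. Krt8 and Krt18, simple-epithelial keratins, and Hand1 were among the genes that were higher, but Cdx2 and Elf5, which define trophoblast stem cells, were at 0.402 TPM (T29I) and 0.256 TPM (WT) and at 0.103 TPM (T29I) and 0.0983 TPM (WT). Eomes was at 2.19 TPM (T29I) and 6.21 TPM (WT) and was called lower as deposited, and Tfap2c was at 53.1 TPM (T29I) and 73.4 TPM (WT). Defining genes of ES cells were detected in both libraries, and most were lower in the T29I library as deposited. Pou5f1, which encodes Oct4, was at 1454 TPM (T29I) and 1722 TPM (WT) and Sox2 at 355 TPM (T29I) and 563 TPM (WT), while Zfp42, a marker of the naive state, was at 23.3 TPM in the T29I library and 544 TPM in the WT library. Nanog was at 140 TPM (T29I) and 765 TPM (WT) and Esrrb at 77.5 TPM (T29I) and 313 TPM (WT). Of the 10 ES cell markers, 6 were called lower and 1 higher as deposited, 3 lower and 1 higher relative to the shift, and 3 lower and 0 higher after adjustment. The 1 higher was Utf1, at 2459 TPM (T29I) and 972 TPM (WT), with an adjusted log2 ratio of -0.40. For comparison, the shares of all genes called lower were 45.7% as deposited, 22.2% against the shift and 15.5% once adjusted. Pou5f1 and Sox2 had log2 ratios of 0.65 and 0.23 against the shift, and adjusted ones of -0.95 and -0.20.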

How the data were processed

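The table that the authors deposited gives each gene's symbol, Ensembl identifier and TPM in both libraries, and each column sums to 1000000. Isogen extraction, ribosomal RNA depletion and a stranded Illumina total RNA kit were used, per the labels' protocols. No label or header names the aligner, counting tool, strand setting, build or annotation (not given in the sources used here). Columns were matched to samples by the sample descriptions, and groups came from the genotype labels.

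The 10 genes, the gene lists and the alternatives were chosen with earlier results of these data known. The lists and the naming rule were written down before the values were computed here: all 10 genes, their paralogues, and the highest and lowest ratio of each list at a mean of at least 5 TPM, plus the 3 named genes nearest to the one with the largest log2 ratio. A gene that this rule would name is not reported here. Other named genes were added after their values were seen, for their known roles. The alpha-actinin paralogues were compared in the same way.

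Identifiers were matched to GENCODE M21 (GRCm38), and 51633 of 51826 matched. TPM times merged exon length, divided by the value of 1 read, was whole within 0.05 for 79.9% of the values in the T29I library and 81.0% in the WT library. This gave estimated depths of 15281662 reads in the T29I library and 16910001 reads in the WT library. For 7 of the 10 genes both values were whole; for Acta2, Cald1 and Vim the longest whole length up to the annotated one that gave whole reads within 0.002 was used, namely 1781, 7687 and 4700 bases. Shorter lengths also fitted Vim, so its interval may be too narrow. Intervals are at 95%, exact Poisson for levels and Clopper-Pearson for ratios of reads.

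Log2 ratios are T29I over WT after adding 1 TPM, so those of low genes are compressed; folds are plain TPM ratios. A call needs an absolute log2 ratio of 1 or more and a mean of 1 TPM or more. The adjustment is the residual from a quadratic regression, with an interaction term, on log2 length and GC content. It was run on simulated data with a known linear length and GC trend, in which the changed genes were drawn without regard to either. That simulation cannot show how true differences that follow these properties are treated. By construction the adjustment also removes such differences. Lengths are those of the longest annotated transcript, whether or not it was expressed. Python 3.11.15, numpy 2.4.6, pandas 2.3.3 and scipy 1.17.1 were used. No test was made, as 1 library per group leaves no spread.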

Additional observations from a re-analysis of the deposited data

How the results depend on the processing

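No paired analysis was possible because each group has 1 library. The alternatives were pseudocounts of 0.1 and 5 TPM, no filter on low values, a mean of at least 5 TPM, rescaling without the 20 most abundant genes of either library, rescaling over protein-coding nuclear genes, and adjustment for length and GC content. Adjustment with merged exon length in place of the longest transcript was chosen after seeing the data. Under all of them the log2 ratio kept its sign in 8 of the 10 genes as deposited and in 10 of 10 relative to the shift. The settings for the filter on low values change only which genes are counted, so they could not alter a sign. After adjustment the shift was 0, so both readings give the same value there. The exceptions as deposited were Cald1, from -0.25 to 2.11, and Vim, from -0.30 to 0.98. Acta2 ranged from 1.39 to 2.93, Cnn1 from 1.49 to 2.89, Tagln from 1.69 to 2.26, Myl9 from 1.39 to 2.29 and Tpm2 from 0.99 to 1.35. The count of the 10 genes at least 2-fold lower was 1 as deposited and 0 after either adjustment, because Actn1 came within 2-fold. With a pseudocount of 5 TPM the count at least 2-fold higher was 4 in place of 5, without Tpm2 at 0.99, and relative to the shift 6 in place of 7, without Tpm1 at 0.93. Cald1 could not be counted at a mean of at least 5 TPM. Over all genes, the count at least 2-fold higher was 1290 as deposited, 749 with a pseudocount of 5 TPM, 2268 after adjustment and 2329 with merged exon length; the count at least 2-fold lower was 5909, and 2003 and 2143 after the adjustments. Relative to the shift, 3371 genes were higher, 5064 with no filter, and 2867 were lower, 1584 with a pseudocount of 5 TPM. Depth limits Acta2 and Cnn1 most, at 14 and 26 estimated reads in the WT library.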
